A study of Mus musculus with 6 samples.

Results

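The unfolded protein response genes described here are a list of 43 genes known as sensors, targets or machinery of the endoplasmic reticulum (ER) stress pathways, matched by gene symbol to the table of counts. All 43 were among the 15168 genes of the table, and 40 of them had enough counts to be among the 11878 genes tested. They were measured by bulk RNA-sequencing of macrophages from full-thickness wounds on the back of wild type female C57BL6/J mice, 3 days after wounding. The young group was 12 weeks old and the aged group 24 months old, with 3 samples each that the labels name as sets A, B and C. The sort kept CD45+ CD11b+ F4/80+ CD64+ cells in both groups. Ly6G was not among its markers, and the paper allows for some neutrophils in the sorted samples. The labels do not say whether the samples came from separate animals or from pools, so p-values measure only the spread between these samples. The question the comparison addresses is how ageing alters wound macrophages early in healing.

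When unfolded proteins build up in the ER, 3 sensors in its membrane respond. PERK, encoded by Eif2ak3, phosphorylates the initiation factor eIF2alpha, which slows most protein synthesis and favours translation of the transcription factor ATF4, whose targets serve amino acid supply, redox balance and cell death. IRE1, encoded by Ern1, splices the Xbp1 transcript into a form that makes an active transcription factor, and ATF6 is cut in the Golgi to release another; XBP1 and ATF6 raise the chaperones, folding enzymes and degradation machinery of the ER. Other kinases, among them GCN2, which senses a lack of amino acids, also act on eIF2alpha. Secretory cells rely heavily on this machinery, and activated macrophages secrete many cytokines. Much of the response is set after transcription, and counts per gene show neither the splicing of Xbp1 nor phosphorylation nor the amount of ATF4 protein.

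The letters that XBP1, ATF6 and ATF4 are known to recognise were looked for in the 250 bases before each start site. They describe the members without use of the counts. Many members were listed as known targets of these pathways, so a raised share of the elements among them is not independent support. The ER stress response element (ERSE), which is CCAAT and CCACG separated by 9 bases on either strand, was found in 9 of the 38 members with a promoter in RefSeq. Among all 32851 RefSeq promoters searched the same way, 37 held it, a share of 0.113%. Counted by gene, as for the members, 35 of 27025 held it, or 0.1295%. It lay before 7 chaperone or folding genes (Calr, Canx, Creld2, Dnajc3, Hsp90b1, Hspa5 and Pdia6) and before the degradation genes Syvn1 and Derl3, and before none of the PERK/ATF4 genes or sensors. Hsp90b1 held it at 2 places. The element is shown in capitals for 6 members whose counts are described below, each on the strand of its gene and with 5 bases on either side; a stretch that opens with CGTGG carries the element on the opposite strand.
Hspa5: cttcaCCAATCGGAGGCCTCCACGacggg
Pdia6: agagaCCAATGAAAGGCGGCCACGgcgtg
Dnajc3: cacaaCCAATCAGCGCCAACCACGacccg
Creld2: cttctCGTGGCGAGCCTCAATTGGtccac
Calr: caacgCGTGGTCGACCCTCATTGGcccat
Syvn1: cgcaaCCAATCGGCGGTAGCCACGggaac

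In GRCm38.p6, which is mm10, these stretches lie at chr2:34772020-34772048 (plus strand) for Hspa5, at chr12:17266486-17266514 (plus strand) for Pdia6, at chr14:118937822-118937850 (plus strand) for Dnajc3, at chr15:88819515-88819543 (plus strand) for Creld2, at chr8:84847070-84847098 (minus strand) for Calr and at chr19:6046527-6046555 (plus strand) for Syvn1. They end before the RefSeq start site of each gene; the authors' gene model of Hspa5 begins further upstream, at position 34771970. Herpud1 held the related ERSE-II, which is ATTGG and CCACG separated by 1 base and was found in 0.0304% of all promoters. Herpud1 and the ATF4 target Chac1 held TTGCATCA, a form of the element that ATF4 binds with C/EBP partners, as did Nupr1 and Vldlr. That octamer was found in 0.792% of all promoters. Asns held the form TTTCATCA, found in 0.883%. The stretches of these 3 genes show the elements in capitals.
Herpud1 ERSE-II: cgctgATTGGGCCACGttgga
Herpud1 ATF4 element: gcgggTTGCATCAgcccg
Chac1 ATF4 element: tgccgTTGCATCActcct
Asns ATF4 element: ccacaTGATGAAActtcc

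Herpud1's stretches lie at chr8:94386372-94386392 and chr8:94386312-94386329 (plus strand), that of Chac1 at chr2:119351044-119351061 (plus strand) and that of Asns, where the element is on the opposite strand, at chr6:7693220-7693237 (minus strand). The stretch of Asns lies inside the authors' gene model, which on the minus strand begins at position 7693255, as do the octamers of Nupr1 and Vldlr inside theirs. The XBP1 element TGACGTGG was found before none of the members and in 0.563% of all promoters. Aldh1l2, Atf6, Derl1, Hyou1 and Manf had no promoter entry. A match is a description of the letters and not of binding, and an element outside this window or with other letters was not looked for.

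Of the 40 tested members, 24 were higher and 1, Shmt2, was lower in aged Day 3 wound macrophages at an adjusted p-value under 0.05 (quasi-likelihood test of edgeR, adjusted by the Benjamini-Hochberg method across the tested genes). Over all 11878 genes the same test called 9.73% higher and 7.97% lower. The members were chosen with earlier results of these data known. The counts of members beside these shares are therefore a description and not independent support. At a change over 2-fold as well, 18 members were higher and 0 lower, against 4.59% and 4.20% of all genes. At an unadjusted p-value under 0.05, 30 members were higher and 1 lower in edgeR, against 18.1% and 16.5% of all genes. DESeq2 and limma-voom likewise called 1 member lower at an adjusted p-value under 0.05. Among all genes, DESeq2 called 1091 of 11912 lower and limma-voom 1713 of 11878. The median log2 fold change was 0.79 over the members and -0.02 over all tested genes. In 25 members the aged samples all lay above the young samples, and in 1 they all lay below, where 19.2% and 19.0% of all genes were so placed. With 3 samples against 3, an exact permutation test of 1 gene cannot give a p-value under 0.1, so the calls rest on the spread that edgeR shares across genes.

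**Figure D1:**
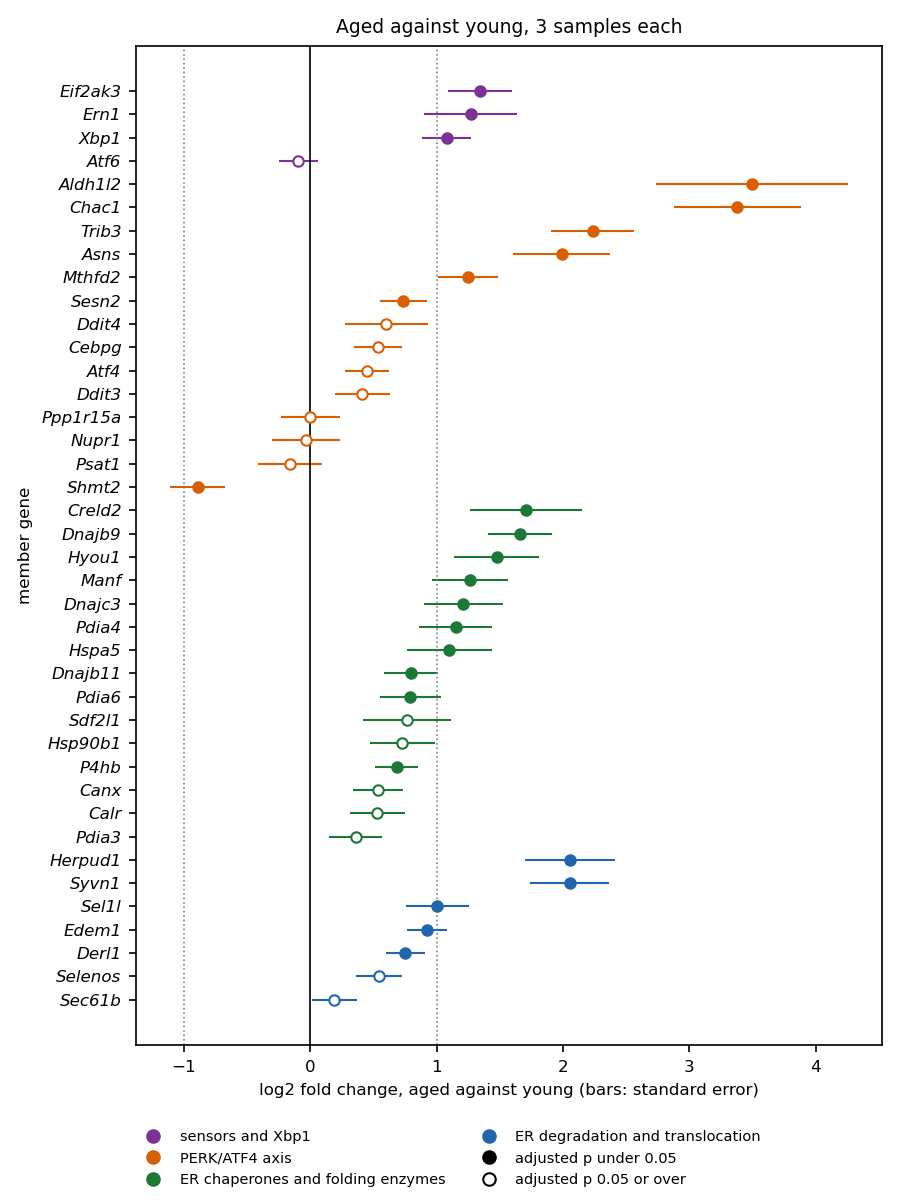
Log2 fold change of the 40 tested members in aged against young Day 3 wound macrophages, 3 samples each (horizontal axis, log2 scale), with standard error as bars; filled points have an adjusted p-value under 0.05, and dotted lines mark a 2-fold change. The points right of 0 number 36, from Ppp1r15a on the line to Chac1 at 3.38 and Aldh1l2 at 3.50; Shmt2 at -0.89 is the only filled point left of 0, and the place of Aldh1l2 depends on the prior count because its young samples held at most 3 counts.

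The 4 sensor and Xbp1 genes were split: Eif2ak3, Ern1 and Xbp1 rose, and Atf6 did not pass the test. Eif2ak3, which encodes PERK (chr6:70844515-70905246), was measured at 3.93, 3.46 and 3.70 counts per 1000000 of the scaled library (CPM) in young A, B and C and at 7.01, 10.6 and 10.5 CPM in the aged samples of the same letters. The ages did not overlap, and the fold change was 2.54 (log2 fold change 1.34 ± 0.26, adjusted p = 0.0111 in edgeR; here and for all genes, ± is the standard error of the log2 fold change over 3 samples a group). Ern1, which encodes IRE1, was at 16.4, 7.33 and 4.89 CPM among young against 19.97, 24.6 and 24.9 CPM among aged samples. Young A lay far above the other two young samples and below all aged ones. The log2 fold change of Ern1 was 1.27 ± 0.37 (adjusted p = 0.0393 in edgeR); it was 1.92 without young A and 0.96 without young C, and the adjusted p-value stayed under 0.05 in only 1 of the 6 fits that left out a sample, the fit without young A.

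Xbp1 (chr11:5520659-5525894), the transcription factor gene that IRE1 acts on, was the most abundant of the 4, with 295, 255 and 299 CPM among young against 458, 653 and 684 CPM among aged samples. The groups did not overlap, aged A was the lowest aged sample, and the log2 fold change was 1.08 ± 0.19 (adjusted p = 0.00879 in edgeR). Atf6, the third sensor, was at 36.1, 44.2 and 39.3 CPM among young against 36.6, 37.1 and 38.2 CPM among aged samples. Its groups overlapped within a narrow range, with a log2 fold change of -0.10 ± 0.16 (adjusted p = 0.698 in edgeR). Per kilobase of the longest coding transcript, Xbp1 was at 133 CPM (young) and 281 CPM (aged), while Eif2ak3 was at 0.819 and 2.08 CPM, the lowest per length of the 40 tested members apart from Aldh1l2 in either age. For the 3 called genes the call was lost without young C, a fit that called 151 of all genes higher, against 1156 with all samples.

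**Figure D2:**
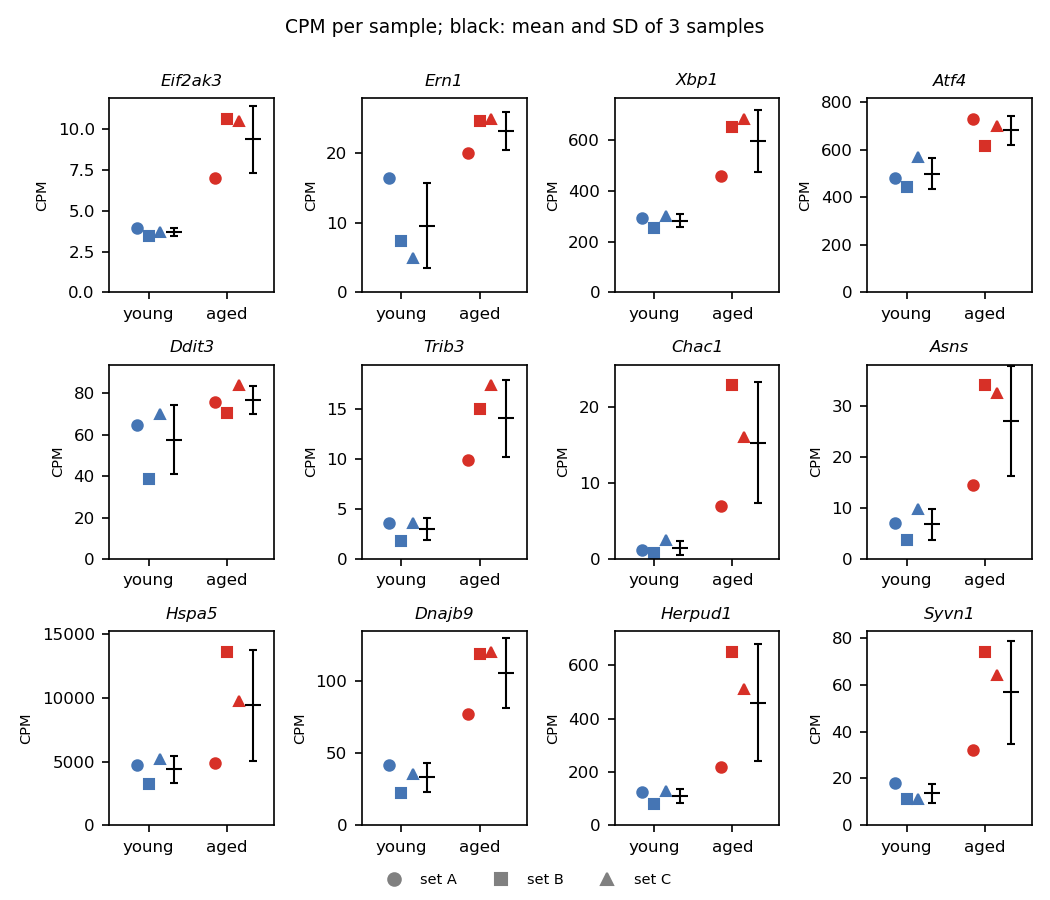
CPM (vertical axes, linear from 0) of 12 members in each young (blue) and aged (red) sample, with the set letter as the marker shape and the mean and SD of 3 samples in black. Trib3, Chac1, Asns, Dnajb9, Herpud1 and Syvn1 are apart between the ages, Atf4 and Ddit3 are apart by a small distance and did not pass the test, and for Hspa5 the aged A sample, at 4924 CPM, lies among the young samples.

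Of the 14 tested PERK/ATF4 genes, 6 rose and Shmt2 fell, and their median log2 fold change was 0.57. Atf4 itself (chr15:80255184-80257542) was at 482, 446 and 571 CPM among young against 731, 616 and 700.2 CPM among aged samples. The groups did not overlap, yet the log2 fold change of 0.45 ± 0.17 did not pass in edgeR (adjusted p = 0.0930); the adjusted p-value lay at 0.0495 in DESeq2, 0.0717 in limma-voom and between 0.0903 and 0.238 in the fits that left out a sample. Ddit3, which encodes the pro-apoptotic factor CHOP, was at 64.6, 38.7 and 70.0 CPM among young against 75.9, 70.6 and 83.9 CPM among aged samples. Its groups were apart by less than 1 CPM, from 70.0 in young C to 70.6 in aged B, and the log2 fold change of 0.41 ± 0.22 did not pass (adjusted p = 0.209 in edgeR); it was 0.20 without young B and 0.57 without young C. Ddit3 overlaps Mars1 on the opposite strand, and whether the counting used strand is not given in the sources used here.

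Chac1 (chr2:119351229-119354382), an enzyme that breaks down glutathione, was the PERK/ATF4 gene with the largest change measured above the floor. It was at 1.11, 0.821 and 2.51 CPM among young against 6.94, 22.8 and 16.0 CPM among aged samples. Counts were low in young samples, from 14 to 38, and ran from 99 to 358 in aged samples, so that the groups were far apart. The log2 fold change was 3.38 ± 0.50 (a fold of 10.4, adjusted p = 0.00436 in edgeR), and 3.97 without young C. Trib3 (chr2:152337422-152344033), a pseudokinase that ATF4 and CHOP raise, was at 3.595, 1.76 and 3.63 CPM among young against 9.88, 15.03 and 17.4 CPM among aged samples. All aged samples were well above the young ones, with a log2 fold change of 2.24 ± 0.33 (adjusted p = 0.00436 in edgeR).

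Asns, the asparagine synthetase, was at 7.02, 3.70 and 9.78 CPM among young against 14.6, 34.1 and 32.5 CPM among aged samples. Aged B and aged C were similar and aged A lay between them and the young samples, with a log2 fold change of 1.99 ± 0.39 (adjusted p = 0.0117 in edgeR). Mthfd2, a mitochondrial enzyme of the folate cycle, was at 28.2, 16.2 and 23.0 CPM among young against 41.0, 65.7 and 53.2 CPM among aged samples, again without overlap. Its log2 fold change was 1.25 ± 0.24 (adjusted p = 0.0114 in edgeR). Sesn2, a sestrin that restrains mTORC1, was at 20.6, 14.7 and 14.7 CPM among young against 27.7, 26.5 and 29.2 CPM among aged samples. The aged samples of Sesn2 lay close together, and the log2 fold change was 0.74 ± 0.19 (adjusted p = 0.0269 in edgeR). Aldh1l2, another mitochondrial folate enzyme, held 1, 3 and 0 counts in young A, B and C and 13, 17 and 15 in aged A, B and C. With a floor of 3 counts in each young library it was at least 5.41-fold higher in aged samples (adjusted p = 0.0162 in edgeR).

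Shmt2, the mitochondrial serine hydroxymethyltransferase that supplies the same folate cycle as Mthfd2, went the other way. It was at 23.2, 18.0 and 21.5 CPM among young against 11.5, 13.7 and 8.65 CPM among aged samples. Every aged sample was below every young sample, with a log2 fold change of -0.89 ± 0.22 (adjusted p = 0.0235 in edgeR). Shmt2 overlaps Ndufa4l2 on the opposite strand, and its call was lost without young C and without aged C. The serine synthesis enzyme Psat1 did not pass the test, with a log2 fold change of -0.16 ± 0.25, so that the amino acid and folate enzymes of the branch held rises (Asns, Mthfd2, Aldh1l2), a fall (Shmt2) and a gene without a call.

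The remaining PERK/ATF4 genes did not pass. Ppp1r15a, which encodes the GADD34 subunit that removes the phosphate from eIF2alpha, was at 267, 343 and 264 CPM among young against 365, 194 and 314 CPM among aged samples, with the highest of the 6 values in aged A and the lowest in aged B. Cebpg, Ddit4 and Nupr1 had log2 fold changes of 0.54 ± 0.19, 0.60 ± 0.33 and -0.04 ± 0.27, and their groups overlapped. Ddit4 was at 1.01 and passed without young A (adjusted p = 0.0403 in edgeR), and was at 0.31 without aged A. The sign of Ppp1r15a, Nupr1 and Psat1 changed with the samples used. Vldlr, at up to 0.469 CPM, and Atf5, at up to 0.221 CPM, fell below the filter on low counts; without the filter edgeR gave adjusted p-values of 0.614 and 0.989. The summed CPM of the 16 listed genes went from 1066 ± 87.2 in young to 1371 ± 118 in aged samples (SD, n = 3), a ratio of 1.29, and Atf4 and Ppp1r15a hold most of it.

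**Figure D3:**
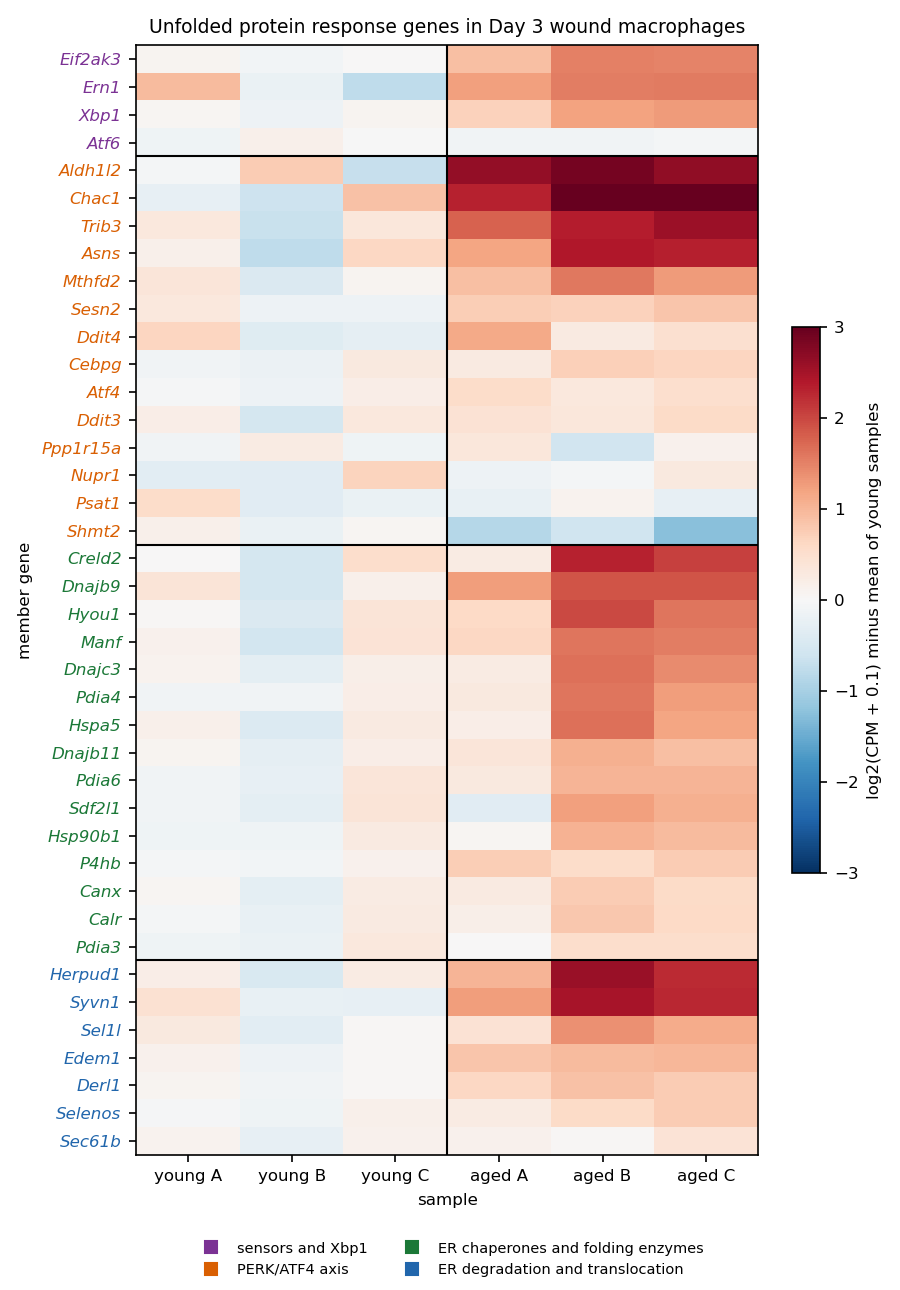
Level of each of the 40 tested members (rows, by role) in each sample (columns) as log2(CPM + 0.1) minus the mean of the young samples; the colour scale stops at 3 in both directions, which Chac1 passes in aged B and C. Most chaperone and degradation rows are darkest in aged B and C and paler in aged A, with P4hb and Sec61b as exceptions, and Trib3, Chac1, Asns and Aldh1l2 lie above the young samples in all 3 aged samples and are likewise lowest of these in aged A; Aldh1l2 differences among young samples rest on 0 to 3 counts.

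All 15 ER chaperones and folding enzymes had a positive log2 fold change and 10 passed the test, with a median of 0.80. The number called in this group was 1 without young B, without young C or without aged C, 4 without aged B, 8 without young A and 12 without aged A. Calls over all genes fell too, from 1156 higher with all samples to 435 without young B, 151 without young C and 351 without aged C. Without aged B, young A or aged A, 894, 1574 and 863 of all genes were called higher. Hspa5 (chr2:34771970-34777548), which encodes BiP, the master chaperone that holds the 3 sensors inactive, was at 4767, 3221 and 5180.0 CPM among young against 4924, 13591 and 9749 CPM among aged samples. Aged A lay inside the young range, while aged B and aged C were far above it. The log2 fold change was 1.10 ± 0.34 (adjusted p = 0.0484 in edgeR). The adjusted p-value of Hspa5 lay between 0.0150 and 0.159 in the fits that left out a sample, and was under 0.05 only without aged A. With all 6 samples it was 0.0762 with the set letter as a replicate block and 0.0517 without the filter on low counts, both in edgeR.

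Dnajb9, a co-chaperone of BiP that XBP1 raises, was the chaperone gene with the smallest adjusted p-value. It was at 42.0, 22.5 and 35.7 CPM among young against 77.5, 119 and 120.4 CPM among aged samples, without overlap, with a log2 fold change of 1.66 ± 0.26 (adjusted p = 0.00495 in edgeR). Creld2, a secreted ER protein with disulfide isomerase activity, had the highest log2 fold change of the group, 1.71 ± 0.45 (adjusted p = 0.0287 in edgeR). It was at 67.1, 46.7 and 96.0 CPM among young against 79.1, 329.7 and 276 CPM among aged samples. As with Hspa5, aged A was within the young range. Hyou1, a large chaperone related to Hsp70, was at 9.57, 6.92 and 12.2 CPM among young against 14.1, 36.9 and 28.8 CPM among aged samples. The groups of Hyou1 were apart by a small distance, and its log2 fold change was 1.48 ± 0.34 (adjusted p = 0.0190 in edgeR).

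Manf, a secreted cofactor of BiP, was at 219, 138 and 269 CPM among young against 311, 612 and 579.9 CPM among aged samples, with a log2 fold change of 1.26 ± 0.30 (adjusted p = 0.0208 in edgeR). Dnajc3, which encodes the co-chaperone p58IPK, was at 84.9, 63.9 and 89.3 CPM among young against 93.8, 247 and 211 CPM among aged samples (log2 fold change 1.21 ± 0.31, adjusted p = 0.0267 in edgeR). In both genes the ages did not overlap, and aged A was the aged sample nearest to the young ones. Dnajb11, another co-chaperone of BiP, was at 127, 99.9 and 139.6 CPM among young against 156, 253 and 227 CPM among aged samples (log2 fold change 0.80 ± 0.21, adjusted p = 0.0317 in edgeR). Manf overlaps genes on either strand, so its counts are uncertain where the counting could not separate them.

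Among the protein disulfide isomerases, which form and rearrange disulfide bonds, Pdia4 was at 194, 194 and 240.2 CPM among young against 255, 637 and 501 CPM among aged samples (log2 fold change 1.15 ± 0.29, adjusted p = 0.0255 in edgeR). Pdia6 was at 370.3, 335 and 514 CPM among young against 493, 808 and 809.8 CPM among aged samples (log2 fold change 0.79 ± 0.24, adjusted p = 0.0462 in edgeR). Its aged A value lay below that of young C, and the call held only without aged A in the fits that left out a sample. P4hb, the founding member of the family, showed another order of samples: it was at 633, 630.3 and 727 CPM among young against 1103, 969 and 1124 CPM among aged samples. Here aged B was the lowest aged sample, with a log2 fold change of 0.68 ± 0.17 (adjusted p = 0.0235 in edgeR). Pdia3, the isomerase that works on glycoproteins with calnexin and calreticulin, had the lowest log2 fold change of the group, 0.36 ± 0.21 (adjusted p = 0.258 in edgeR). It was at 721, 680.2 and 977 CPM among young against 792, 1132 and 1126 CPM among aged samples, which overlapped.

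The lectin chaperones Calr and Canx, the Hsp90 of the ER (Hsp90b1) and Sdf2l1 had log2 fold changes from 0.53 to 0.77 and did not pass in edgeR with all 6 samples. Without aged A, Sdf2l1 was at 1.118 and Hsp90b1 at 0.98, and both passed (adjusted p = 0.0174 and 0.0182 in edgeR). In DESeq2, Canx and Hsp90b1 passed, and in limma-voom Hsp90b1 did. The 8 tested members with an ERSE were Creld2, Dnajc3, Hspa5, Pdia6 and Syvn1, which rose, and Calr, Canx and Hsp90b1, which did not pass. Of all tested genes, 8753 had a promoter to search. The 6 other tested genes with an ERSE in the same window (Adcy3, Alg12, Gm20560, Hnrnpa3, Pan2 and Xlr3b) had log2 fold changes from -0.53 to 0.78. In edgeR 0 of these 6 passed at an adjusted p-value under 0.05, where 9.73% of all tested genes were higher and 7.97% lower. Per kilobase, Hspa5 was the most abundant member in both ages, at 1195 CPM per kilobase among young against 2566 among aged samples, ahead of Calr and Atf4. Summed over the 15 genes, the CPM was 8773, 6824 and 10225 in young and 10034, 21754 and 17461 in aged samples, so aged A, at 10034, was below young C, at 10225. The ratio of the group means was 1.91, and 1.66 without Hspa5.

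Among the tested members outside the PERK/ATF4 branch, the largest changes of single genes were those of the ER degradation genes Herpud1 and Syvn1. Of the 7 tested degradation genes, 5 were higher and 0 lower. Their median log2 fold change was 0.92, against 1.18 for the sensors and Xbp1. Herpud1 (chr8:94386438-94395378), which organises the degradation complex in the ER membrane, was at 124, 79.4 and 129 CPM among young against 220.2, 651 and 511 CPM among aged samples. The ages were apart, with aged A the lowest aged sample and aged B the highest. The log2 fold change was 2.05 ± 0.36 (adjusted p = 0.00809 in edgeR). Syvn1 (chr19:6046576-6053713), the ubiquitin ligase HRD1 at the core of that complex, was at 18.3, 11.4 and 11.2 CPM among young against 32.1, 73.9 and 64.1 CPM among aged samples. Its log2 fold change was 2.05 ± 0.31 (adjusted p = 0.00480 in edgeR), without overlap; Syvn1 overlaps Mrpl49 on the opposite strand. Per kilobase, Herpud1 moved from rank 18 of the 43 members in young to rank 9 in aged samples.

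Sel1l, the partner of HRD1, was at 66.5, 43.7 and 56.1 CPM among young against 73.4, 142 and 119 CPM among aged samples (log2 fold change 1.005 ± 0.25, adjusted p = 0.0245 in edgeR). Edem1, a lectin that hands misfolded glycoproteins over for degradation, was at 166, 136 and 157 CPM among young against 269, 294 and 305 CPM among aged samples (log2 fold change 0.92 ± 0.16, adjusted p = 0.00810 in edgeR). Edem1 differed from Sel1l in that its aged samples lay close together, all far above the young ones. Derl1, a channel protein of the same pathway, was at 90.2, 78.9 and 87.0 CPM among young against 131, 157 and 144 CPM among aged samples (log2 fold change 0.75 ± 0.15, adjusted p = 0.0141 in edgeR). Its aged samples were likewise close to each other. Sec61b, a small subunit of the channel through which proteins enter the ER, had the lowest log2 fold change of the group, 0.19 ± 0.18 (adjusted p = 0.484 in edgeR), and was at 47.8, 37.1 and 48.5 CPM among young against 48.3, 45.0 and 58.7 CPM among aged samples. Selenos, a selenoprotein that binds the degradation complex, did not pass in edgeR with all 6 samples (log2 fold change 0.54 ± 0.18, adjusted p = 0.0610) and passed in DESeq2, in limma-voom and in edgeR without aged A. Derl3 fell below the same filter in the fit of all 6 samples, at 0.553, 0 and 0.264 CPM among young against 0.490, 1.91 and 2.10 CPM among aged samples, where aged B and aged C held 30 and 34 counts and the other samples 0 to 10. DESeq2 tested it, with a log2 fold change of 2.47 and an adjusted p-value of 0.0387, while edgeR without a filter gave 2.42 and 0.101.

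Aged A was the lowest aged sample in 31 of the 40 members (77.5%), where this was so in 37.1% of all tested genes. It was the lowest in 14 of 15 chaperone genes, 6 of 7 degradation genes and 4 of 4 sensor genes, and in 7 of 14 PERK/ATF4 genes. Among the chaperones, aged A lay above all young samples in 8 genes, within the young range in 6 and below it in Sdf2l1, while aged B and aged C were above all young samples in 15 of 15. Over all tested genes, aged A, B and C were above all young samples in 34.6%, 34.1% and 33.3%, and aged A was within the young range in 29.3%. As a mean over the tested genes of each group, aged A was 0.33 above the young mean on the log2 scale in the chaperones, where aged B was 1.31 and aged C 1.16 above it. In the PERK/ATF4 genes the same values were 0.77, 1.01 and 1.01, and in the degradation genes 0.65, 1.26 and 1.22. These means are descriptions of 3 aged samples, and the difference in order between the groups was not tested.

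**Figure D4:**
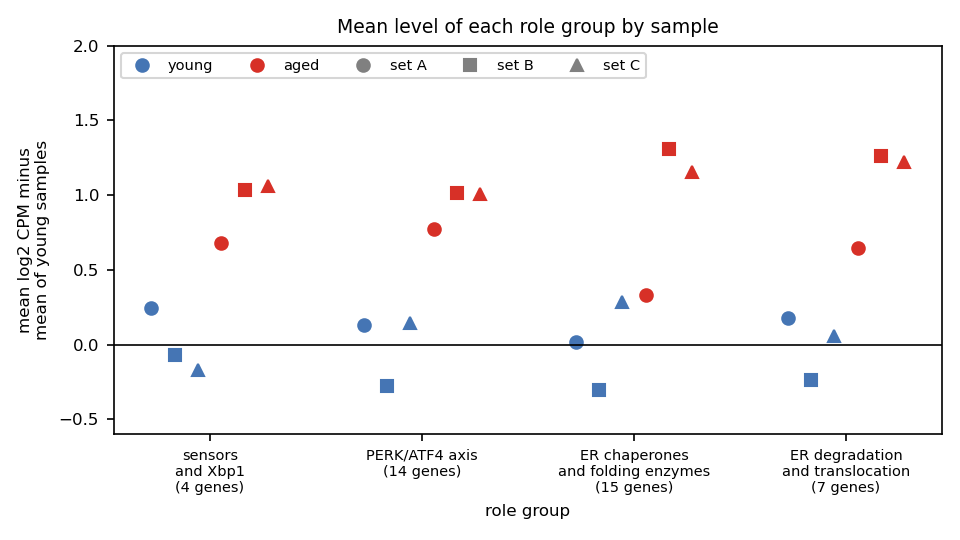
Mean log2 CPM of the tested genes in each role group minus the mean of the 3 young samples (vertical axis, log2 scale), by sample, with age as colour and set letter as shape. Aged A (red circle) is at 0.33 in the chaperones, next to young C at 0.29, and stands clear of the young samples in the other groups, at 0.65 to 0.77.

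Genes outside the 43 were read from lists written for the same pathways. Beside the counts of each list stand the 9.73% of all tested genes called higher and the 7.97% called lower. Among 25 other ATF4 targets tested, 5 rose and 0 fell (median log2 fold change 0.38). The log2 fold change was positive in 16 of them and negative in 9. Lowest were Atf3 at -1.07 ± 0.36 and Gdf15 at -0.87 ± 0.34, which did not pass (adjusted p = 0.0634 and 0.0994 in edgeR). Slc7a11, the cystine transporter, was at 71.9, 50.7 and 58.0 CPM among young against 419.6, 257 and 271 CPM among aged samples (log2 fold change 2.39 ± 0.23, adjusted p = 0.00127 in edgeR). Slc38a2, a transporter of neutral amino acids, was at 110.0, 50.9 and 69.5 CPM among young against 213, 206 and 231 CPM among aged samples (log2 fold change 1.497 ± 0.25, adjusted p = 0.00738 in edgeR). Aged A was the highest aged sample of Slc7a11. Of 12 eIF2alpha kinases, phosphatase and eIF2B genes, 1 rose and 2 fell (median -0.26). The gene that rose was Ppp1r15b, which encodes the other phosphatase subunit for eIF2alpha beside Ppp1r15a, at 48.5, 28.3 and 33.7 CPM among young against 85.5, 75.0 and 82.0 CPM among aged samples (log2 fold change 1.13 ± 0.21, adjusted p = 0.00923 in edgeR), without overlap. Eif2b3, a subunit of the factor that recharges eIF2, was at 18.3, 13.1 and 18.7 CPM among young against 7.15, 12.4 and 6.11 CPM among aged samples (log2 fold change -0.97 ± 0.28, adjusted p = 0.0418 in edgeR). Eif2b4, another subunit, was at 14.7, 19.8 and 15.7 CPM among young against 10.4, 9.30 and 9.57 CPM among aged samples (log2 fold change -0.77 ± 0.20, adjusted p = 0.0281 in edgeR). Both subunits were lower in every aged sample.

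On the side of XBP1 and ATF6, 1 of 12 genes of the ATF6 family and IRE1 partners rose and 1, Bloc1s1, fell (median 0.05). The gene that rose was Creb3l2, a relative of ATF6, at 3.32, 2.17 and 4.29 CPM among young against 5.74, 13.3 and 12.4 CPM among aged samples (log2 fold change 1.69 ± 0.37, adjusted p = 0.0162 in edgeR). Its aged samples were all above the young ones, with aged A lowest. Of 22 other folding genes 5 rose and 2 fell (median 0.16), and Prdx4, an ER peroxiredoxin, was the lowest, at 57.1, 54.4 and 68.5 CPM among young against 35.9, 38.3 and 31.9 CPM among aged samples (log2 fold change -0.76 ± 0.17, adjusted p = 0.0161 in edgeR). Of 21 other degradation genes 6 rose and 0 fell (median 0.51). Of 30 genes of the translocon and signal peptide processing 11 rose and 0 fell (median 0.45). The counts of these lists are set against 9.73% of all genes higher and 7.97% lower, as for the members.

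Libraries were of similar depth, with 15270103 to 17927483 counts assigned to genes, so that 1 count was 0.0558 to 0.0655 CPM before scaling. Mitochondrial genes held 0.863% to 1.44% of counts. In bulk samples, fewer cells of a type and less RNA per cell cannot be told apart. Of 10 macrophage markers 9 were at or above 94.2 CPM in every sample, while Mertk was at 6.80 to 28.7 CPM. Itgam was higher and Adgre1 lower in aged samples, and Cd68 and Lyz2 lay lower in every aged sample without passing (adjusted p = 0.121 and 0.0753 in edgeR). The markers of other wound cells were read from lists of their own; the CD45+ CD11b+ gate is meant to remove fibroblasts, keratinocytes and endothelial cells, which lack CD45. Of 12 B and plasma cell markers 8 were in the table, Cd79a, Ms4a1, Igkc and Pou2af1 were at or under 0.892 CPM with Cd79a at 0 in young B, young C and aged A, Ighm and Cd79b were lower and Prdm1 was higher in aged samples, and the summed level was 383 to 661 CPM (young) and 646 to 689 CPM (aged), most of it Sdc1. Of 8 fibroblast markers 0 of 6 tested were called, and their sum was 25.3 to 41.9 CPM in young samples, against 12.4, 123 and 36.9 for aged A, B and C. Of 8 keratinocyte markers 1 was tested and was higher, and their sum was 0.830 to 0.939 CPM in young samples, against 2.10, 135 and 1.85 for aged A, B and C. Aged B was the highest sample in both lists and the highest aged sample in 12 of the 15 chaperones. Of 6 plasmacytoid dendritic cell markers 0 of 1 tested were called, and their sum was 0.396 to 2.16 CPM in young samples, against 3.43, 9.49 and 0.679 for aged A, B and C, with Ly6d and Siglech highest in aged B. Of 10 T and NK cell markers 4 were tested, of which Il7r was higher (2.12-fold, adjusted p = 0.0110 in edgeR) and Cd4 lower, and their sum, most of it Il7r, was 69.1 to 109 CPM (young) and 159 to 185 CPM (aged). The T cell genes Cd3e, Cd3d and Cd3g were at or under 1.19 CPM. Of 5 endothelial markers 1 of 2 tested was higher (Pecam1, 3.22-fold, adjusted p = 0.00220 in edgeR), with sums of 10.0 to 11.2 CPM (young) and 25.0 to 30.6 CPM (aged), while Cdh5, Tek and Cldn5 were at or under 0.704 CPM. Of 6 mast cell markers 0 of 5 tested were called, and their sum was 25.6 to 94.9 CPM in young samples, against 64.2, 1.02 and 0.741 for aged A, B and C, so that aged A lay within the young range and aged B and aged C below it. Of 15 neutrophil markers 4 of 12 tested were higher, with sums of 717 to 1217 CPM (young) and 926 to 1583 CPM (aged), and of 13 proliferation markers 9 were lower and 1 higher, with sums of 184 to 316 and 137 to 158 CPM. The part of the cells that any of these lists marks in the members' differences was not tested.

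Reads of a few further members may be shared with other genes: Aldh1l2, Hsp90b1, Pdia3 and Pdia6 overlap a gene on the opposite strand, Cebpg and Mthfd2 overlap one on their own strand, and Calr has a pseudogene. The calls of the members depended on the samples in the fit. Of the 24 members that rose, 6 (Asns, Chac1, Dnajb9, Herpud1, Syvn1 and Trib3) had an adjusted p-value under 0.05 in all 6 edgeR fits that left out a sample, and all 24 kept a positive log2 fold change in these fits. The number of higher members was 6 without young C, 10 without aged C, 12 without young B, 16 without aged B, 24 without young A and 25 without aged A. The number called higher over all genes was 1156 with 6 samples, and in the same order of fits 151, 351, 435, 894, 1574 and 863. Derl3 was tested in 4 of these fits and was one of the 24 members higher without young A. Shmt2 was not called without young C or without aged C.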

How the data were processed

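Bulk RNA-sequencing of sorted Day 3 wound macrophages was analysed in 3 young and 3 aged samples. cDNA was amplified from low input with the SMART-Seq kit. The authors aligned reads with STAR 2.7.3a to mm10 and quantified Ensembl release 102 transcripts in Partek Flow, and they deposited expected counts per gene without normalisation, for genes with a total of at least 10. Whether strand was used is not given in the sources used here. A second deposited table holds counts scaled with DESeq2 and the authors' own fold changes and p-values, and was not used.

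Expected counts were rounded and tested in R 4.3.3 with edgeR 4.0.16 (TMM scaling, filterByExpr, quasi-likelihood test of aged against young without a block, p-values of 11878 genes adjusted by the Benjamini-Hochberg method); calls required an adjusted p-value under 0.05. CPM values use TMM-scaled libraries. Totals ran from 15270103 to 17927483 counts, and a library at or under 3 counts was read as at the floor. No 2 samples of 1 age agreed within sampling noise, so none was treated as a repeat deposit of another, and all 6 were kept. Alternatives were DESeq2 1.42.0, limma-voom (limma 3.58.1) with sample quality weights, edgeR with DESeq2's size factors, all genes unfiltered, a minimum of 10 counts per sample, a block for the set letter and 6 fits that each dropped 1 sample. Fits were tested on simulated data.

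The members and lists were chosen with earlier results of these data known. Values are given for each member with a call, for Atf4, Ddit3, Xbp1, Hspa5, Eif2ak3, Ern1 and Atf6, for the highest and lowest log2 fold change of each role group, and for the 3 highest and 3 lowest called genes of the other pathway lists; others named were chosen after their values were seen. Promoters came from the RefSeq table on GRCm38.p6, where 38 of 43 members matched, and transcript lengths from GENCODE M21. Coordinates of genes follow the deposited table (mm10). Figures used matplotlib 3.10.9 and pandas 2.3.3 in Python 3.11.15.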

Additional observations from a re-analysis of the deposited data

How the results depend on the processing

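Over the alternatives, 165 of 180 counts and medians of the members and role groups kept their value within the limits set, and the 15 that moved were counts in fits that left out a sample. These limits were wide: a change of the higher members from 24 to 16, without aged B, counted as kept. A change from 24 to 12, without young B, counted as moved. In the fits that left out a sample the number of members called ran from 6 to 25 higher and from 0 to 1 lower. The same fits called 151 to 1574 of all genes higher and 67 to 1128 lower. By role the higher calls ran from 3 to 7 for the PERK/ATF4 genes (lower from 0 to 1), from 0 to 3 for the sensors and Xbp1, from 1 to 12 for the chaperones and from 2 to 6 for the degradation genes. Fewer samples were fitted in each, and why young C mattered most was not tested. The median log2 fold change of all members stayed between 0.703 and 0.995 in the same fits. The other settings called 22 to 29 members higher and 1 lower. Their calls among all genes ran from 1022 higher and 808 lower without a filter to 1933 higher and 1713 lower in limma-voom. DESeq2 added Atf4, Cebpg, Canx, Hsp90b1, Selenos and Derl3 and gave Aldh1l2 no adjusted p-value, limma-voom added Hsp90b1 and Selenos, and fitting without a filter lost Hspa5 and Pdia6.

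Of the log2 fold changes of single members, 395 kept their direction and side of the threshold, 11 gained a call, 61 lost it and 11 reversed, the last all in Ppp1r15a, Nupr1 and Psat1, which had no call. Ppp1r15a was at 0.00 in the main comparison, -0.013 with at least 10 counts in every sample and -0.033 with the replicate block, and ran from -0.19 to 0.23 when a sample was left out. Nupr1 was at 0.030 with the replicate block and ran from -0.20 to 0.38, and Psat1 ran from -0.32 to 0.17, when a sample was left out; the cause was not tested. Aged and young samples share set letters. Deviations from the group means correlated at 0.18, -0.02 and 0.11 across genes for sets A, B and C. Between samples of different letters the correlations ran from -0.22 to 0.14. With 3 samples a group these values cannot settle whether the letters mark pairs, and the main fit used no block. With the set letter as a replicate block 23 members were higher, Hspa5 alone being lost (edgeR adjusted p = 0.0762).

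Depth limits Chac1, Aldh1l2 and Derl3 most, which held few counts in young samples, and Vldlr and Atf5, which the filter on low counts removed and to which DESeq2 gave no adjusted p-value. Counts rest on amplified cDNA, and how much of the spread between samples came from amplification was not tested.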
